A study of Mus musculus with 48 samples.

Results

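The chromatin and transcription genes linked to autism examined here are 33 genes of the 47069 in the deposited count table, chosen by gene symbol from genes in which rare damaging variants have been tied to autism and related developmental disorders. They were followed in mice that carry a deletion of band 7qF3 on chromosome 7, the stretch that matches human 16p11.2, and in wild-type mice. Bulk RNA was sequenced from striatum, cerebellum and cortex of 16 animals, 8 deletion and 8 wild-type, with 4 males and 4 females of each genotype, which gave 48 libraries. All groups share the mixed background C57BL/6N:129Sv, and the labels name no other allele, transgene or treatment. The labels do not state how the deletion was made or on how many copies of the chromosome it lies, and they carry a date that separates the animals as sex does, so sex and that date cannot be told apart.

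The 33 genes act in the nucleus, where they set how tightly DNA is packed and which genes are read. Chromatin remodellers such as the CHD proteins and the BAF complex slide or evict nucleosomes with energy from ATP, histone methyltransferases and demethylases add or remove methyl marks on histone tails, and co-regulators and transcription factors bring these activities to chosen genes. Many of them are dosage sensitive, so that loss of a single copy in humans is enough to disturb brain development, and several guide how neurons of the cortex, striatum and cerebellum are born and acquire their identity. The genes were sorted by role or family: 6 remodellers and their partners (Chd2, Chd7, Chd8, Arid1b, Smarcc2 and Adnp), 9 of histone methyltransferase families, called methyltransferases below (Kmt2a, Kmt2c, Kmt2e, Kmt5b, Setd2, Setd5, Ash1l, Nsd1 and Ehmt1), 2 histone demethylases (Kdm5b and Kdm6b), 10 co-regulators and readers (Ankrd11, Asxl3, Auts2, Mbd5, Med13, Med13l, Phf12, Pogz, Tbl1xr1 and Tcf20), 4 DNA-binding transcription factors (Bcl11a, Foxp1, Myt1l and Tcf4) and 2 genes linked to ubiquitin (Trip12 and Wac). The activity of each protein was not measured, and not every protein of a family need have it.

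The libraries held between 29244745 and 60751792 gene counts, with a median of 32232112. The genes of the deleted interval marked the genotype in every library: their mean log2 CPM (read counts of a gene scaled to a fixed library total) lay between 2.72 and 3.17 in deletion striatum and 3.62 and 4.31 in wild-type striatum, between 2.86 and 3.37 in deletion cerebellum and 3.68 and 4.45 in wild-type cerebellum, and between 2.85 and 3.39 in deletion cortex and 3.76 and 4.30 in wild-type cortex. Region markers did not always go with the label. In 5 deletion and 4 wild-type cortex libraries the mean log2 CPM of 17 striatal markers was above that of 12 cortical markers. In 1 deletion and 3 wild-type striatum libraries the mean of 12 thalamic markers was above that of the striatal ones. The thalamic means were not particular to striatum: their medians were 5.61 in deletion and 5.44 in wild-type striatum, and 5.37 and 5.29 in cerebellum. Whether dissections were mixed or tissues swapped was not tested. All 16 cerebellum libraries had cerebellar markers on top, although that of deletion animal D809 stood low at 5.90, against 7.47 to 8.53 in the other cerebellum libraries of both genotypes. In bulk tissue, fewer cells of a type and less RNA per cell cannot be told apart.

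Sequences at the starts of these genes were read from the RefSeq promoter table of build GRCm38.p6, which gives 250 bases before and 50 bases after a start and held 31 windows for 23 of the 33 genes. Windows rich in CpG, the dinucleotide whose methylation marks silent promoters, made up 61.3% of the member windows (19 of 31) and 33.3% of the 32851 windows in the table, by the criteria of a GC content above 50% and an observed-to-expected CpG ratio above 0.6. The median window held 23 CpG in the members and 7 over the table, and the letters TATAAA, searched on both strands, were in 0 member windows and in 13.6% of all windows. The windows of the table, from 27025 genes, were not limited to genes expressed in these tissues. No share among expressed genes was taken. 3 windows are printed because they differ in CpG number and belong to genes called between cerebellum and cortex below, with each CpG in capitals. Kmt2c, on the minus strand at chr5:25498734-25499033, holds 56 CpG. Bcl11a, on the plus strand at chr11:24080445-24080744, holds 23. Tcf20, on the minus strand at chr15:82912085-82912384, holds 8. The Kmt2c window spans the first base of its gene model, at 25498783. Those of Bcl11a and Tcf20 lie inside their models, which begin at 24078056 and 82987872, so they may not show the main start. Which start is used in these tissues was not tested.
Kmt2c: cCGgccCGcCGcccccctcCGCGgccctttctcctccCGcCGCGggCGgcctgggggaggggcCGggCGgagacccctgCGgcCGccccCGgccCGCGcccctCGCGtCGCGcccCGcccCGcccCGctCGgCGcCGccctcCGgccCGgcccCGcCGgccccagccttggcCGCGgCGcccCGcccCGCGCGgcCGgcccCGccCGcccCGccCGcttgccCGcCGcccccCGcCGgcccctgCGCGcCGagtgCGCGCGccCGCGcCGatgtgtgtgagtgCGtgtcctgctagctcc
Bcl11a: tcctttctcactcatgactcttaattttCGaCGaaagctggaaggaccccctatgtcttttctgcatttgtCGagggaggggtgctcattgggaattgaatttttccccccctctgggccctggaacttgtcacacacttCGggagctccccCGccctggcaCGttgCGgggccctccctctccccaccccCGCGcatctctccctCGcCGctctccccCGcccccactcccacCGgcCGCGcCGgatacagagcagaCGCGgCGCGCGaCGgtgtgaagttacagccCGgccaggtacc
Tcf20: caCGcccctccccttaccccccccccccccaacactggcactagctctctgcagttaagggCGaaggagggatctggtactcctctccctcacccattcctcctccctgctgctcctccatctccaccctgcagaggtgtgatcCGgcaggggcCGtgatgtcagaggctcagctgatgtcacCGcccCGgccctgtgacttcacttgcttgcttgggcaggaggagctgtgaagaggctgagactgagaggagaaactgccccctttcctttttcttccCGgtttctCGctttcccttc
The members are also long: their median exon length was 14018 bases, against 4376.5 bases over the 15054 genes above 1 CPM, and their median genomic span was 115 kb, against 23.8 kb. They lie on 18 chromosomes, and the 1 on chromosome 7, Chd2, is outside the deleted interval.

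All members except Adnp passed the filter on low counts in all 3 regions. Levels per exon length are given as RPKM, which is CPM per kilobase of exon, in wild-type libraries. The median of the 32 other members was 5.64 RPKM in striatum, 6.10 RPKM in cerebellum and 5.86 RPKM in cortex. Smarcc2, a core BAF subunit, was highest in all 3, with 53.0 ± 8.66 RPKM in striatum, 57.2 ± 9.69 RPKM in cerebellum and 48.9 ± 4.38 RPKM in cortex (SD, n = 8 libraries each). Asxl3, a Polycomb-linked co-regulator, was lowest, with 0.713 ± 0.325, 0.307 ± 0.143 and 0.630 ± 0.173 RPKM in the same order. Chd7 moved most in rank: it was the 2nd of the 32 in cerebellum and number 31 in striatum and in cortex. Bcl11a was number 24 in striatum, number 30 in cerebellum and number 8 in cortex. Adnp, a zinc finger protein that works with CHD4, had 251 counts over all 48 libraries and at most 26 in one. Its whole locus lies, on the same strand, inside the gene model Gm20716, which had 0 counts, so no level of Adnp is read from these counts.

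Between regions of wild-type mice, the plainest differences were in 4 genes. Bcl11a, a zinc finger repressor of neuronal subtype genes, had 36.7 to 85.6 CPM in striatum (median 56.1), 12.5 to 19.0 CPM in cerebellum (median 16.5) and 87.1 to 124 CPM in cortex (median 101). No library of 1 region overlapped another region. Its log2 fold change was −0.91 ± 0.14 (SE) for striatum over cortex, −2.67 ± 0.14 for cerebellum over cortex and 1.76 ± 0.14 for striatum over cerebellum, with edgeR adjusted p of 0.000104, 1.27e-12 and 6.94e-10. Chd7, the remodeller mutated in CHARGE syndrome, ran the other way, with 15.4 to 33.6 CPM in striatum (median 23.1), 82.1 to 291 CPM in cerebellum (median 189) and 6.29 to 16.5 CPM in cortex (median 12.3). Every cerebellum library was above every library of the other regions, while striatum and cortex overlapped at their edges. The log2 fold changes of Chd7 were 0.86 ± 0.22 for striatum over cortex, 3.97 ± 0.25 for cerebellum over cortex and −3.12 ± 0.24 for striatum over cerebellum (edgeR adjusted p 0.00836, 1.32e-11 and 3.29e-10).

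Foxp1, a forkhead factor of striatal projection neurons and upper cortical layers, had 18.8 to 140 CPM in striatum (median 64.6), 13.6 to 22.4 CPM in cerebellum (median 15.8) and 32.5 to 121 CPM in cortex (median 76.8). Cerebellum lay below all cortex libraries, and striatum overlapped both. It was higher in striatum than in cerebellum by 1.96 ± 0.34 on the log2 scale and lower in cerebellum than in cortex, at −2.21 ± 0.34 (edgeR adjusted p 4.52e-05 and 1.01e-05). Tcf20, a nuclear co-regulator related to the retinoic acid-induced RAI1, had 58.0 to 144 CPM in striatum (median 103), 27.4 to 62.6 CPM in cerebellum (median 32.8) and 57.1 to 119 CPM in cortex (median 67.1). Only the highest cerebellum library lay within the range of either forebrain region. Its log2 fold change was 1.35 ± 0.22 for striatum over cerebellum and −0.99 ± 0.21 for cerebellum over cortex (edgeR adjusted p 1.75e-05 and 0.000502).

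**Figure D1:**
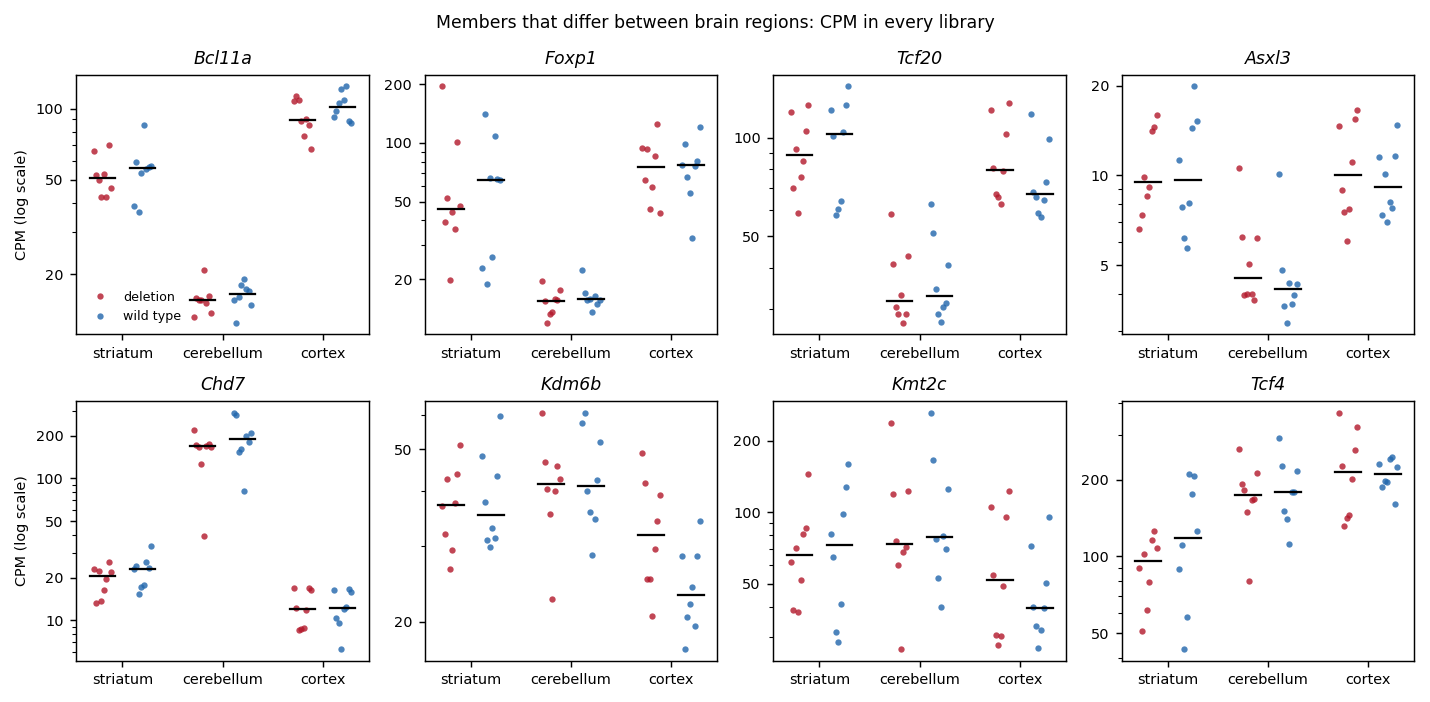
CPM on a log scale of 8 members in each of the 48 libraries, in striatum, cerebellum and cortex, with deletion libraries left of wild-type libraries and a black bar at the median of 8. Chd7 stands highest in cerebellum, Bcl11a and Foxp1 lowest there, and deletion and wild-type points overlap in every panel.

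For striatum over cortex, 4 of the 32 members tested passed an adjusted p of 0.05 (12.5%), against 18.6% of the 17633 genes tested. Higher in striatum were 2 members, against 9.95% of all genes, and lower were 2, against 8.67%. Beside Chd7 and Bcl11a these were Kdm6b, a demethylase that removes the repressive mark on lysine 27 of histone H3, and Tcf4, a basic helix-loop-helix factor mutated in Pitt-Hopkins syndrome. Kdm6b had 29.8 to 59.6 CPM in striatum (median 35.3) and 17.3 to 34.3 CPM in cortex (median 23.1), which is 0.69 ± 0.17 on the log2 scale (edgeR adjusted p 0.0069). The groups overlapped only between the lowest striatum and the highest cortex libraries. Tcf4 had 43.4 to 210 CPM in striatum (median 118) and 161 to 246 CPM in cortex (median 211), which is −0.80 ± 0.25 on the log2 scale (edgeR adjusted p 0.0251). This call was kept in 4 of 8 fits that left out 1 animal each and was lost without W806, W807, W808 or W816 (edgeR adjusted p up to 0.0869). With the animal as a block, 8 members were called, 6 higher and 2 lower, beside 5356 of the 17633 genes. The 4 added were the methyltransferase Kmt2a at 0.59 ± 0.21, the remodeller Chd2 at 0.34 ± 0.10, the heterochromatin reader Pogz at 0.29 ± 0.10 and the PHD-finger co-regulator Phf12 at 0.23 ± 0.08 (edgeR adjusted p 0.0401, 0.019, 0.0365 and 0.0367). In the 8 deletion animals 3 members passed for the same pair of regions, beside 3268 of 17615 genes. Of the 3, 2 were among the 4 of the wild type (Bcl11a and Tcf4). Kdm6b was there at 0.18 ± 0.18.

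For cerebellum over cortex, 13 of the 32 members were called (40.6%), against 48.9% of all genes tested. Higher in cerebellum were 8 members, against 24.2% of all genes, and lower were 5, against 24.7%. The 8 comprised the remodellers Chd7, Chd2 and Chd8, the methyltransferases Kmt2c, Kmt5b, Ehmt1 and Setd2, and the demethylase Kdm6b. Kmt2c, which places the mark of active enhancers on lysine 4 of histone H3, had 40.0 to 262 CPM in cerebellum (median 78.7) and 26.8 to 95.3 CPM in cortex (median 39.8), which is 1.20 ± 0.40 on the log2 scale (edgeR adjusted p 0.0166). Without W806 its edgeR adjusted p was 0.0614, and the calls of Chd8 and Setd2 were lost there too (edgeR adjusted p 0.0756 and 0.0754). The groups overlapped over most of the cortex range. Kdm6b had 28.5 to 60.6 CPM in cerebellum (median 41.2), against the cortex values above, and rose by 0.85 ± 0.17 on the log2 scale (edgeR adjusted p 0.000267). Kmt5b, which dimethylates and trimethylates lysine 20 of histone H4, had 44.3 to 107 CPM in cerebellum (median 67.0) and 40.7 to 60.5 CPM in cortex (median 46.6), and was at 0.59 ± 0.16 on the log2 scale (edgeR adjusted p 0.00457). These 3 genes overlapped between the regions at their edges or beyond, in contrast to Chd7.

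The 5 members lower in cerebellum were Bcl11a, Foxp1, Tcf20, Asxl3 and the neuronal zinc finger factor Myt1l. Asxl3 had 3.21 to 10.1 CPM in cerebellum (median 4.14) and 6.99 to 14.7 CPM in cortex (median 9.15), which is −1.01 ± 0.26 on the log2 scale (edgeR adjusted p 0.00261), and the groups overlapped in 1 cerebellum library at 10.1 CPM. Of the 4 transcription factors, 3 were lower in cerebellum than in cortex and none higher. The 9 methyltransferases had a median log2 fold change of 0.48, against 0.04 over all genes, and 4 of them were called (44.4%), near the share of all genes. No difference between the roles was tested. In the 8 deletion animals 9 members were called, 1 higher and 8 lower, beside 8533 of 17615 genes. Among the 9 were 6 of the 13 called in wild type: Chd7, Asxl3, Bcl11a, Foxp1, Tcf20 and Myt1l. The 7 others called in wild type were Chd2, Chd8, Kmt2c, Kmt5b, Ehmt1, Setd2 and Kdm6b, all at positive values in the deletion animals, between 0.17 for Chd8 and 0.66 for Kmt2c, without passing the test. Whether the 2 sets of animals differ was tested as the difference of the genotype effect between tissues, given below, and no member passed. Without the libraries whose markers go against their label, 9 members were called, all 9 among the 13, beside 7585 of 18202 genes.

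For striatum over cerebellum, 9 of the 32 members were called (28.1%), against 48% of all genes tested. Higher in striatum were 6, against 25.5%, and lower were 3, against 22.4%. The 6 were Foxp1, Bcl11a, Tcf20, Asxl3, Myt1l and the demethylase Kdm5b. Asxl3 had 5.69 to 19.9 CPM in striatum (median 9.68), against the cerebellum values above, and was at 1.16 ± 0.27 on the log2 scale (edgeR adjusted p 0.000897). The 3 lower in striatum were Chd7, Kmt5b and Tcf4. Kmt5b had 37.8 to 68.9 CPM in striatum (median 55.5), against the cerebellum values above, and was at −0.44 ± 0.16 on the log2 scale (edgeR adjusted p 0.0293). That call was lost without W805, W806, W807 or W808, in 4 of 8 fits (edgeR adjusted p up to 0.0858). Tcf4, with the striatum values above, had 112 to 290 CPM in cerebellum (median 178) and was at −0.64 ± 0.25 on the log2 scale (edgeR adjusted p 0.0374). It was called in 3 of 8 fits without 1 animal, and not without W805, W806, W807, W808 or W816 (edgeR adjusted p up to 0.131). In the 8 deletion animals 8 members were called, beside 7930 of 17615 genes, and all 8 were among these 9.

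**Figure D2:**
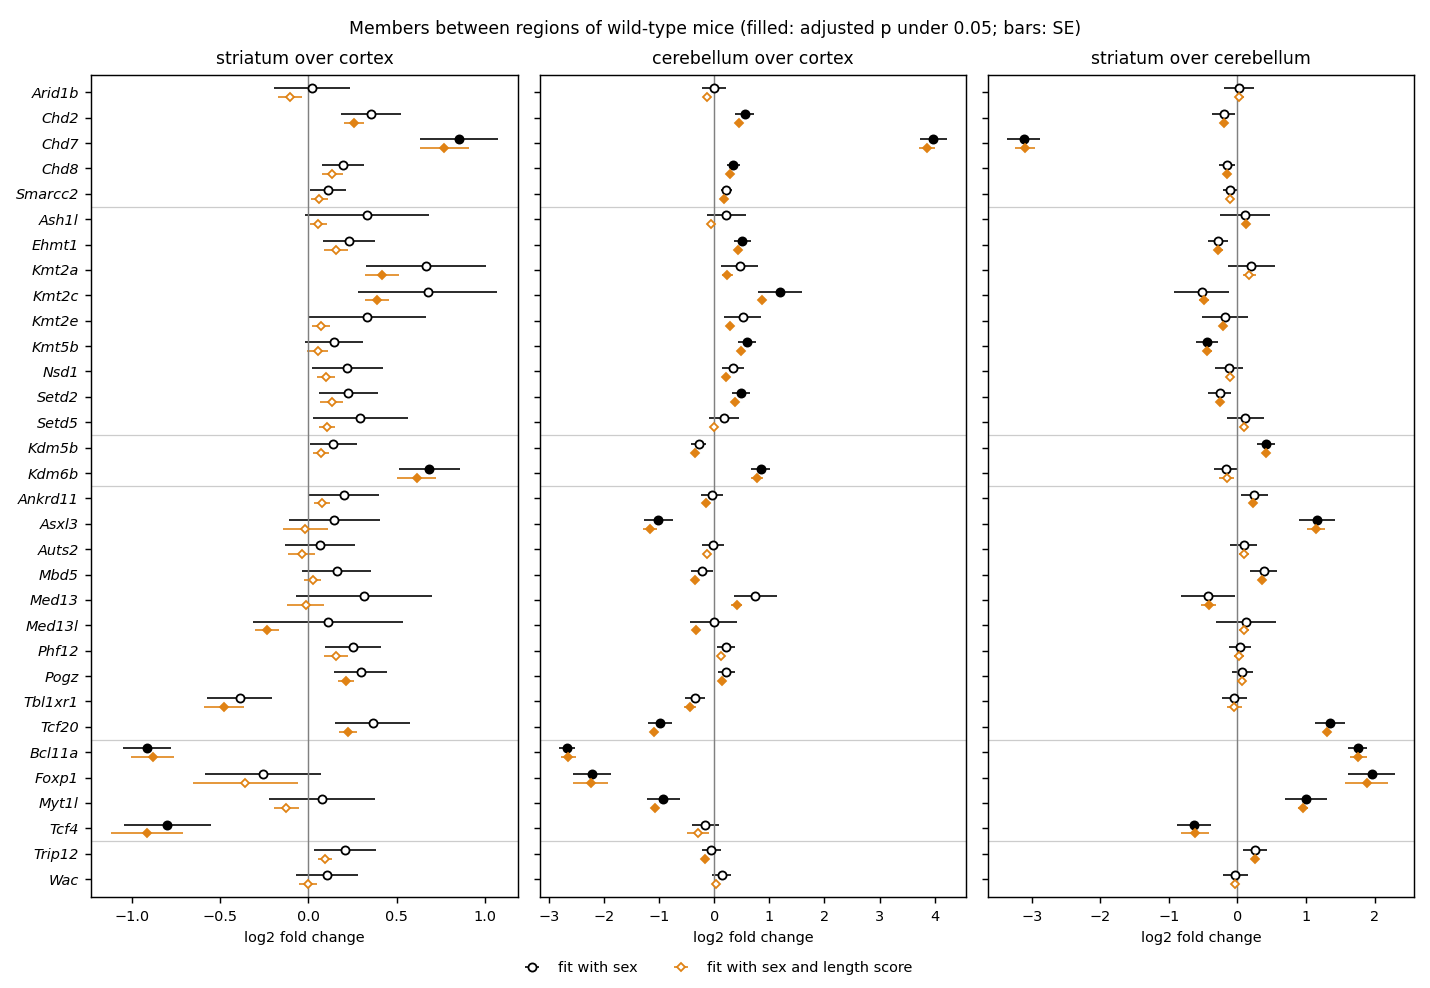
Log2 fold change with SE of the 32 members for striatum over cortex, cerebellum over cortex and striatum over cerebellum in the 24 wild-type libraries, ordered by role with grey lines between roles. Black circles are from the fit with sex and orange diamonds from the fit with sex and the length score, filled where the adjusted p was under 0.05; Chd7 reaches 3.97 in cerebellum over cortex and Bcl11a −2.67.

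Foxp1 had the widest range of the members among striatum libraries, 10.3-fold, and Med13l followed at 6.42-fold and Med13 at 6.08-fold. Foxp1 was highest in deletion animal D801 at 195 CPM, wild-type W806 at 140 CPM, wild-type W814 at 109 CPM and deletion D811 at 101 CPM, whose striatal marker means were 8.41, 7.77, 6.90 and 7.38. It was lowest in wild-type W807 at 18.8 CPM, deletion D804 at 19.9 CPM, wild-type W805 at 23.0 CPM and wild-type W813 at 26.1 CPM, with striatal means of 5.24, 5.18, 4.70 and 4.27. The order was not the same throughout: D810, at a striatal mean of 4.995, had 36.3 CPM and W815, at 5.27, had 65.0 CPM. The 4 lowest libraries also had length scores, a measure of long against short genes given below, of −0.78, −0.57, 0.24 and −0.47. Tcf4, which spanned 4.83-fold, was highest in the 3 wild-type striatum libraries of W813, W815 and W814, at 210, 206 and 176 CPM, and these 3 had the highest cortical marker means of the tissue, 5.45, 5.66 and 5.50. Their part in the results was not tested. Without the libraries that go against their label, Foxp1 was at 2.27 ± 0.32 for striatum over cerebellum and Tcf4 at −1.13 ± 0.32 for striatum over cortex.

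The proteins that work with the members were listed as 108 partners: subunits of the BAF, KMT2 and Mediator complexes, further CHD proteins, other histone methyltransferases and demethylases, the NCoR, SIN3 and Polycomb co-regulators, and transcription factors paralogous to the members. Of 107 tested, 7 were higher and 4 lower in striatum than in cortex, 42 higher and 16 lower in cerebellum than in cortex, and 17 higher and 23 lower in striatum than in cerebellum. These are 10.3%, 54.2% and 37.4% of the partners, against 18.6%, 48.9% and 48% of all genes. Bcl11b, the paralogue of Bcl11a and a factor of striatal and deep cortical neurons, was at 5.37 ± 0.52 for striatum over cerebellum and −5.28 ± 0.52 for cerebellum over cortex on the log2 scale, and St18, a zinc finger paralogue of Myt1l, was at −2.59 ± 0.48 and 3.57 ± 0.49 for the same pairs. For striatum over cortex the largest changes were in Myt1, another such paralogue, at 1.10 ± 0.31, and the BAF subunit Dpf3 at 0.81 ± 0.21.

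No member was called between deletion and wild-type mice in any region. The share of all genes called was 0.128% in striatum (22 of 17198, 0.0116% higher and 0.116% lower), 0.138% in cerebellum (23 of 16672, 0.012% higher and 0.126% lower) and 0.13% in cortex (22 of 16877, 0.0119% higher and 0.119% lower). At an unadjusted p under 0.05 there were 0 members in striatum, 0 in cerebellum and 1 in cortex. Over all genes, that p was reached by 263 higher and 308 lower in striatum, 143 and 203 in cerebellum, and 131 and 212 in cortex. DESeq2 called 0 members in each region. For no member did the deletion and wild-type libraries fail to overlap, against 0.11%, 0.12% and 0.119% of all genes in striatum, cerebellum and cortex. The members lay to 1 side within each region: 2 of 32 had a positive log2 fold change in striatum (median −0.09), 2 in cerebellum (median −0.10) and 31 in cortex (median 0.13), while the medians over all genes were −0.01, −0.00 and 0.00. The number of positive members moved with single libraries: leaving out 1 animal gave 0 to 11 in striatum, 1 to 13 in cerebellum and 22 to 31 in cortex, with the lowest cortex count without D801. With the length score described below it was 14 in striatum, 4 in cerebellum and 15 in cortex. Dissection markers were also used as covariates: the striatal and thalamic means in striatum and cortex, and the choroid plexus and ependyma mean in cerebellum. No cortical or cerebellar marker mean entered. With these covariates the number of positive members was 0 in striatum, 11 in cerebellum and 29 in cortex, at medians of −0.14, −0.02 and 0.12. The median SE of a single member was 0.17 in striatum, 0.18 in cerebellum and 0.17 in cortex.

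In cortex the smallest p belonged to Kdm6b, with 20.7 to 49.1 CPM in deletion mice (median 31.8) and 17.3 to 34.3 CPM in wild-type mice (median 23.1), which is 0.44 ± 0.18 on the log2 scale (edgeR adjusted p 0.965). The groups overlapped over most of their range. Auts2, a Polycomb-associated activator, had 43.4 to 98.9 CPM in deletion cortex (median 54.6) and 39.0 to 71.4 CPM in wild-type cortex (median 45.4), at 0.28 ± 0.17. Bcl11a was the single member with a negative value, −0.17 ± 0.11, with 67.5 to 113 CPM in deletion cortex (median 89.3) and 87.1 to 124 CPM in wild-type cortex (median 101). Med13, part of the Mediator kinase module, had 18.8 to 80.9 CPM in deletion cortex (median 37.4) and 22.3 to 68.3 CPM in wild-type cortex (median 29.3), at 0.43 ± 0.30. Auts2, Bcl11a and Med13 had the same adjusted p as Kdm6b. Medians of the roles in cortex ran from 0.04 for the transcription factors to 0.28 for the demethylases.

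In striatum the smallest p belonged to Tcf4, with 51.2 to 125 CPM in deletion mice (median 96.1) and 43.4 to 210 CPM in wild-type mice (median 118), at −0.37 ± 0.22 with an edgeR adjusted p of 1. The wild-type spread held the whole deletion range. Chd7 had 13.2 to 25.7 CPM in deletion striatum (median 20.7) and 15.4 to 33.6 CPM in wild-type striatum (median 23.1), at −0.21 ± 0.16. Chd8, a CHD remodeller that is among the genes most often hit by new variants in autism, had 97.9 to 160 CPM in deletion striatum (median 115) and 104 to 174 CPM in wild-type striatum (median 123), at −0.13 ± 0.11. Setd5 had 66.7 to 166 CPM in deletion striatum (median 96.7) and 63.1 to 188 CPM in wild-type striatum (median 129), at −0.24 ± 0.21. In all of these the groups overlapped over most of their range.

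In cerebellum Phf12 was at −0.23 ± 0.17 with 27.3 to 67.1 CPM in deletion mice (median 50.8) and 34.5 to 82.2 CPM in wild-type mice (median 56.7). Chd7 had 39.1 to 220 CPM in deletion cerebellum (median 169) and 82.1 to 291 CPM in wild-type cerebellum (median 189), at −0.34 ± 0.27. Chd8 had 91.3 to 167 CPM in deletion cerebellum (median 130) and 101 to 187 CPM in wild-type cerebellum (median 135), at −0.14 ± 0.11. Ehmt1, which methylates lysine 9 of histone H3, had 20.9 to 54.2 CPM in deletion cerebellum (median 45.9) and 30.4 to 74.4 CPM in wild-type cerebellum (median 46.0), at −0.20 ± 0.18. The 4 genes each had an edgeR adjusted p of 1, and their groups overlapped. The deletion cerebellum of D809, low in cerebellar markers, held the lowest Chd7 value of either genotype, 39.1 CPM.

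**Figure D3:**
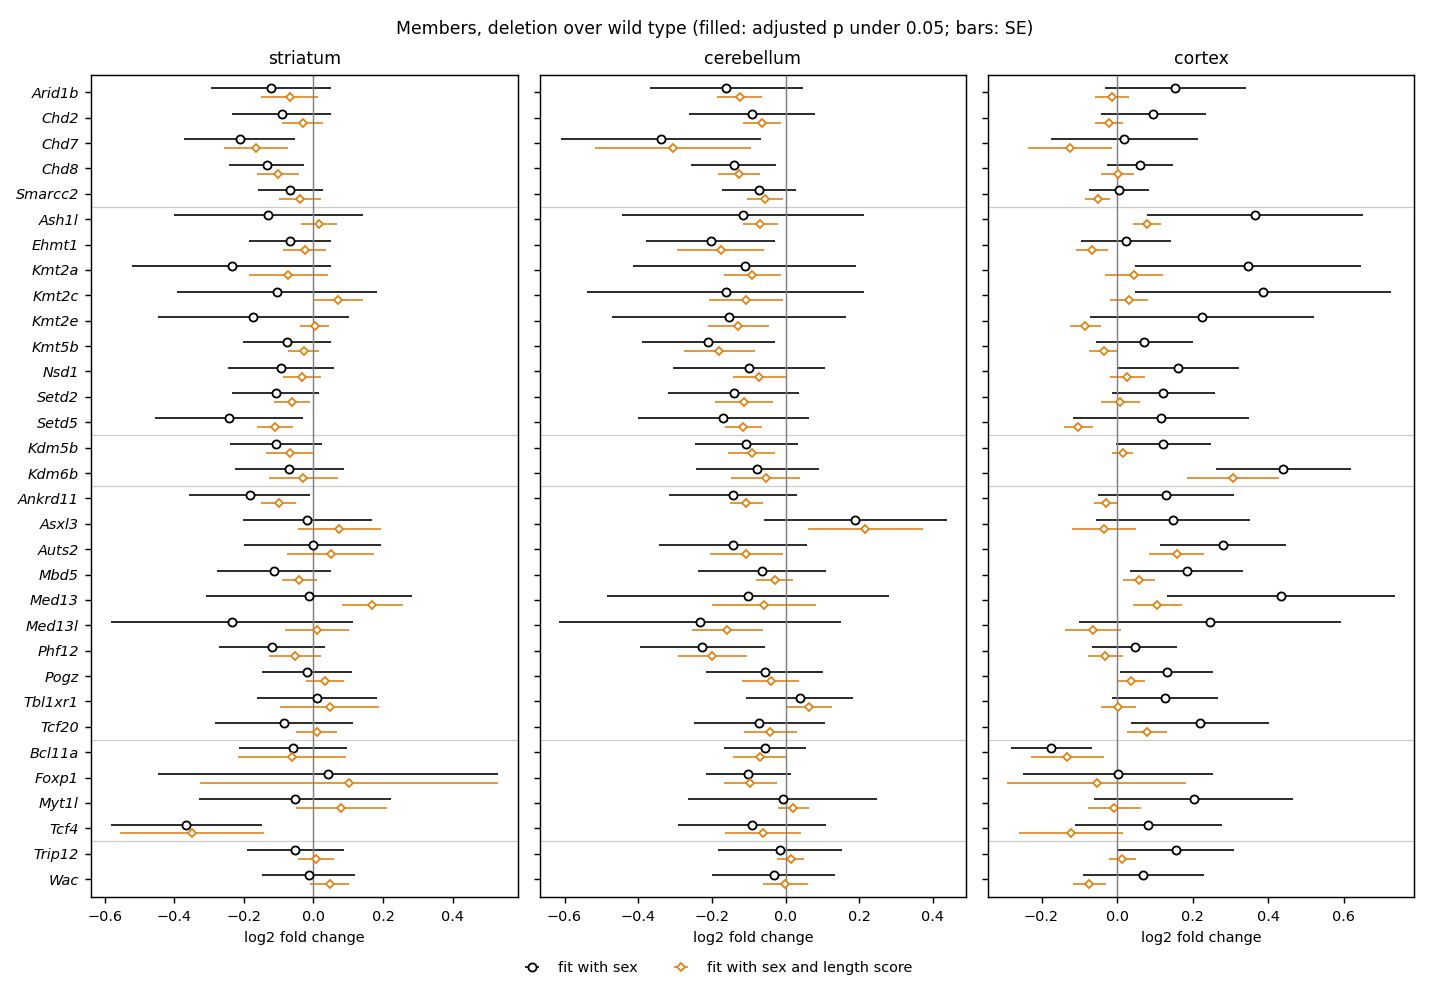
Log2 fold change with SE of the 32 members, deletion over wild type, in striatum, cerebellum and cortex, ordered by role. Black circles are from the fit with sex and orange diamonds from the fit with sex and the length score; no point is filled, since no adjusted p was under 0.05, and most black bars reach or cross 0.

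The effect of the deletion was then compared between regions and between sexes. In 1 fit of all 48 libraries no gene and no member was called for the difference of the genotype effect in striatum minus cortex, cerebellum minus cortex or striatum minus cerebellum. At an unadjusted p under 0.05 there were 0, 1 and 0 members, and DESeq2 called 0. The median difference of the members was −0.26, −0.26 and 0.00, so the opposite signs of the list medians in the regions did not come with a called difference in any member. No member was called for males minus females either, with 0 at an unadjusted p under 0.05 in each region and 0 by DESeq2. Median log2 fold changes in males were −0.03 in striatum, −0.13 in cerebellum and 0.06 in cortex, and in females −0.18, −0.07 and 0.22. Of the partners 0 of 107 were called for deletion against wild type in any region. At an unadjusted p under 0.05 there were 2 in striatum, 3 in cerebellum and 0 in cortex, beside the counts of all genes given above. Partner medians were −0.05 in striatum, −0.08 in cerebellum and 0.06 in cortex. The 25 neuronal genes linked to autism had medians of −0.08, −0.05 and 0.11, with 0 called and 0 at an unadjusted p under 0.05.

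Part of the spread was shared by almost all members and by whole libraries. A library's log2 CPM relative to the mean of its region was averaged over all 33 members, Adnp among them. In striatum this mean ran from −0.71 in wild-type W807 to 0.64 in wild-type W816. In cerebellum it ran from −0.86 in deletion D809 to 0.82 in wild-type W805. In cortex it ran from −0.49 in deletion D804 to 0.62 in deletion D812. With Adnp left out, the members above their region mean numbered between 0 and 32 of 32 in a library. The same libraries differed in other long genes. A length score was taken as the mean deviation of 3752 genes with over 6754 exon bases minus that of 3753 genes with under 2707, the members left out, and 29 of the 33 members lie above the upper limit. The member mean and the length score had the same sign in 15 of 16 striatum, 16 of 16 cerebellum and 15 of 16 cortex libraries. Ribosomal protein genes, which are short, ran the other way: their mean log2 CPM was 8.73 in W807 and 7.27 in W816 in striatum, 8.37 in D809 and 6.79 in W805 in cerebellum, and 8.52 in D804 and 7.06 in D812 in cortex.

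The pattern was partly shared between regions of an animal. The member mean was above the region mean in all 3 regions in 4 animals, 2 deletion and 2 wild-type, and below in all 3 in 5 animals, 2 deletion and 3 wild-type. Deletion striatum had a mean length score of −0.03 and wild-type striatum of 0.03, deletion cerebellum of −0.02 and wild-type cerebellum of 0.02, and deletion cortex of 0.09 and wild-type cortex of −0.09. Members differed in their range between libraries: over the 16 libraries of cerebellum the highest value was 10.5 times the lowest for Med13, 9.81 for Kmt2c and 9.07 for Med13l, against 1.67 for Smarcc2 and 1.67 for Bcl11a. In striatum Smarcc2 spanned 1.54-fold.

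**Figure D4:**
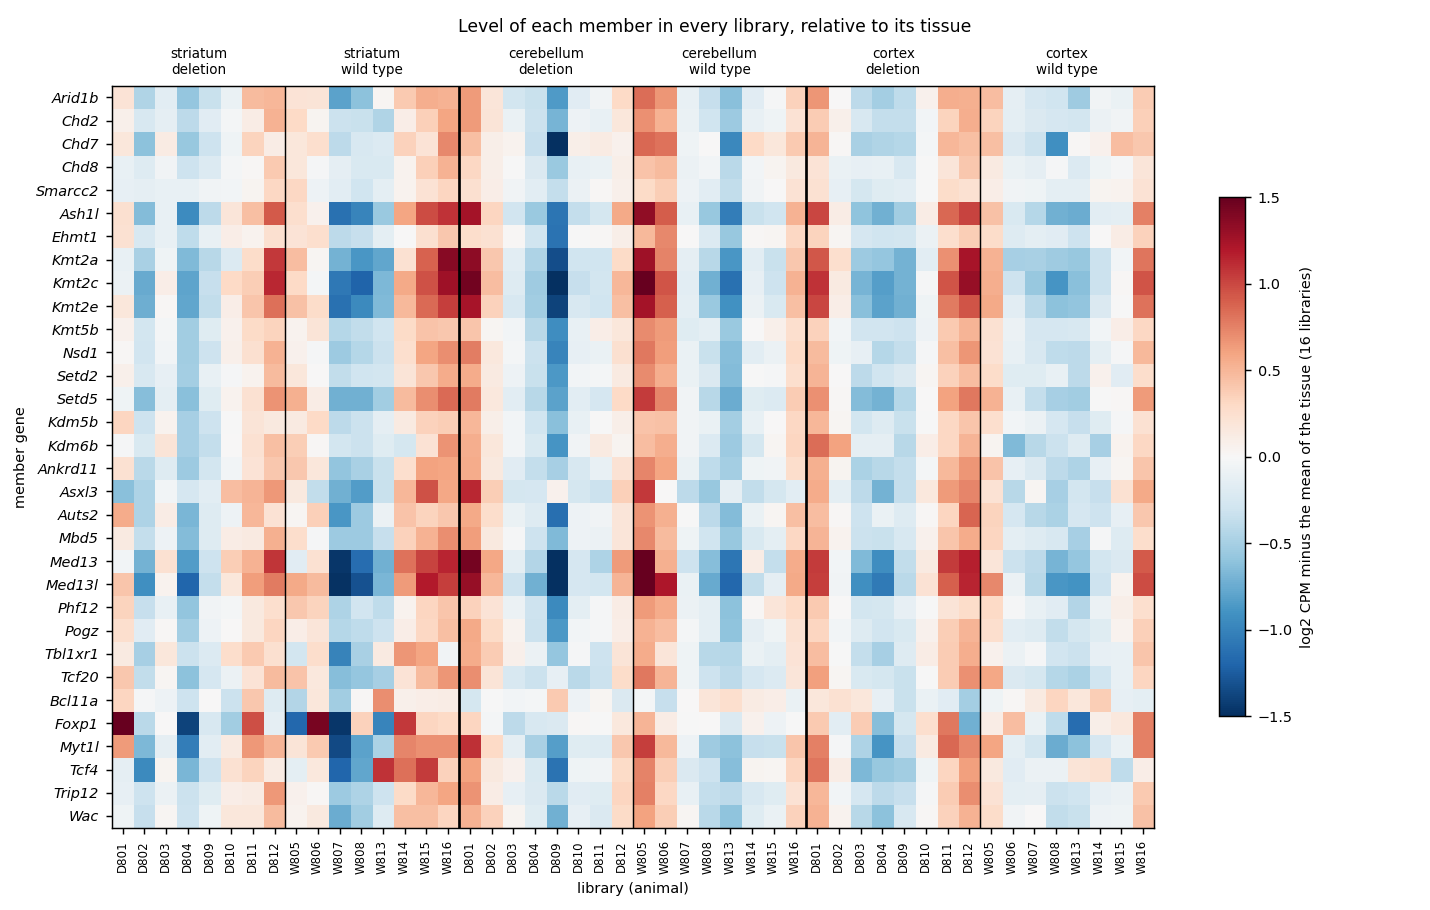
Log2 CPM of each member minus its region mean, in the 48 libraries named by animal, with deletion left of wild type in each region; red is above and blue below the mean, and the scale is capped at 1.5. Some columns are red or blue nearly as a whole, as in D801 and W805 cerebellum and in W807 striatum. Others are split, as in D810 cortex with 15 of 32 members above the mean, and Bcl11a, Foxp1 and Tcf4 depart from their columns.

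**Figure D5:**
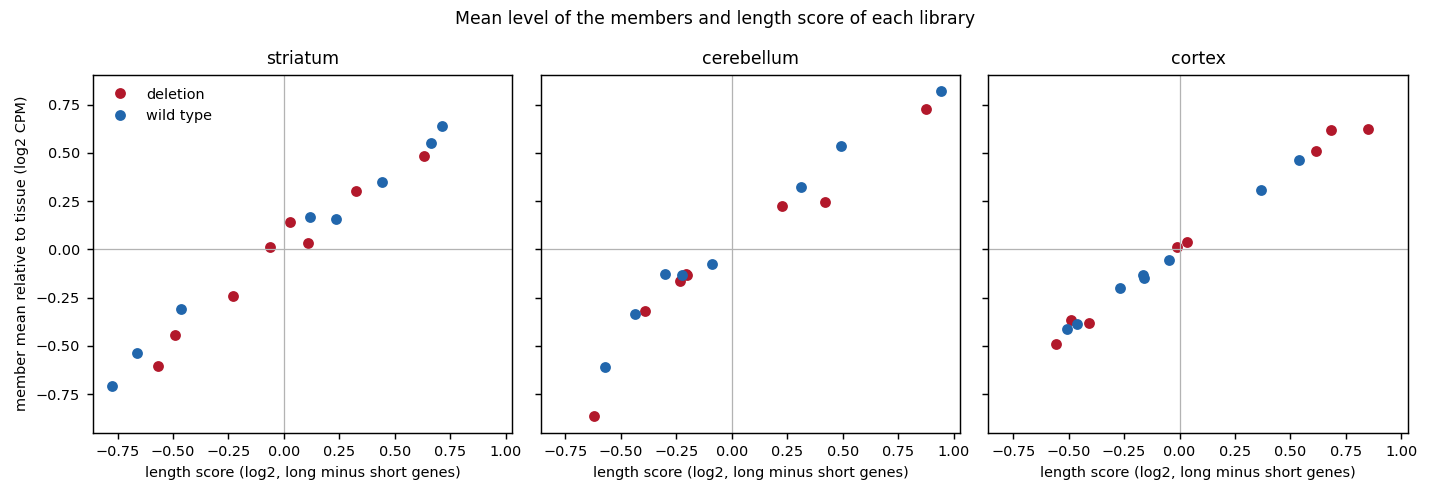
Mean deviation of the 33 members, Adnp among them, from the region mean (log2 CPM) against the length score of each library. There are 16 libraries per region, deletion in red and wild type in blue. The points rise along 1 line from the lower left to the upper right in each region, and both genotypes lie along it.

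With the length score as a further term, the median log2 fold change of deletion over wild type was −0.03 in striatum, −0.08 in cerebellum and −0.01 in cortex, and 0 members were called. The median SE of a member fell to 0.06, 0.07 and 0.05. The share of all genes with an unadjusted p under 0.05 was not counted in these fits. Of the members, 1 in striatum, 3 in cerebellum and 3 in cortex had such a p. Setd5 was among them in all 3 regions, at −0.11 ± 0.05 in striatum, −0.11 ± 0.05 in cerebellum and −0.10 ± 0.04 in cortex, with edgeR adjusted p of 0.599, 0.705 and 0.902; it was picked out after its values were seen. Between regions of wild-type mice the same term raised the calls to 11 for striatum over cortex, 25 for cerebellum over cortex and 20 for striatum over cerebellum. All members called without it were among them. Calls rose over all genes too, to 6975, 11667 and 11664 of 17633 in the same order.

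The choice of libraries changed the cortex result. Without the 9 cortex libraries whose striatal markers exceed the cortical ones, 3 deletion and 4 wild-type libraries were left and 22 of the 32 members were called higher in deletion mice, with a median of 0.64. In the same fit 5200 of 17210 genes were called. The 3 deletion libraries had length scores of 0.68, −0.01 and 0.85, and the 4 wild-type ones −0.27, −0.51, −0.46 and −0.17. A fit of the same libraries with the length score in place of the sex term called 0 members and 1 of 17210 genes. The median of the members was 0.00. Every deletion score lay above every wild-type score, so in these libraries the score and the genotype cannot be told apart. The score was not added with sex kept, so the part of each term was not tested.

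The deleted interval itself holds 5 chromatin and transcription genes. Ino80e, a subunit of the INO80 remodeller, fell by 0.92 ± 0.12 in striatum, 1.01 ± 0.13 in cerebellum and 1.002 ± 0.151 in cortex on the log2 scale. Hirip3, a partner of the histone chaperone HIRA, fell by 0.93, 1.12 and 1.11, and the zinc finger factor Maz by 1.02, 1.07 and 1.16, in the same order of regions, and all 3 genes passed in each (edgeR adjusted p at most 0.00702). Tbx6, a T-box factor, was called in striatum alone, at −0.98 ± 0.16 (edgeR adjusted p 0.0167), and was at −0.75 ± 0.25 in cerebellum and −0.90 ± 0.20 in cortex. Pagr1a, a subunit of the KMT2C and KMT2D complexes, was not tested: its highest value in a library was 0.0319 CPM in deletion mice and 0.130 CPM in wild-type mice, both in cerebellum, and it overlaps the gene models Pagr1b and Gm42742 on the same strand, so its count is uncertain.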

How the data were processed

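The authors deposited 1 table of read counts per gene for 48 libraries, and its values are whole-number counts, not normalized. Libraries were made with a TruSeq stranded mRNA kit, per the labels. SAMtools, Picard, the aligner STAR (2.4.2a) and FastQC (0.10.1) are listed, per the submitters' processing notes, beside the builds GRCm38 and mm8 with no role. What counted the reads, on which annotation and with what strand setting is not given in the sources used here, so reads of overlapping genes cannot be assigned with certainty. Of 47161 rows, 92 spike-in rows (0.0614% to 1.09% of counts) were left out. Gene symbols and exon lengths came from GENCODE vM21, which matched 46488 of 47069 genes.

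Deletion and wild type were compared within each region by edgeR 4.0.16 (quasi-likelihood, TMM, filterByExpr, sex as a term, Benjamini-Hochberg over all genes tested) in R 4.3.3, calling an adjusted p under 0.05. Regions were compared in the 24 wild-type libraries, and genotype effects between regions in all 48. CPM were computed from the counts with TMM-adjusted library totals, and log2 CPM used a prior count of 2. The members and lists were chosen with earlier results of these data known. Values by library are given for the 4 members of smallest p per region and the up to 4 called members of largest change in each direction per region pair. Within a region a p-value measures the spread between these animals. Between regions the main fits had no animal term, so libraries of 1 animal entered as if independent. Same-numbered libraries come from the same animal, per the labels; their deviations from group means had median correlations of 0.372 (striatum with cortex), 0.434 (cerebellum with cortex) and 0.240 (striatum with cerebellum), against −0.07, −0.00 and −0.04 between animals. Alternatives were DESeq2 1.42.0, RLE scaling, no filter, no sex term, marker covariates, each sex alone and each animal left out. The animal was also a block in limma 3.58.1 for deletion against wild type, and a term in edgeR for comparisons between regions. A further alternative, chosen after seeing the data, was the length score. The scripts were tested on simulated counts.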

Additional observations from a re-analysis of the deposited data

Results flagged for a closer look

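Among 108 groups of 8 libraries examined for a library far from the others, 13 held one. The limit flags about 1 in 20 groups of independent, normally spread values. Most groups here hold CPM without logs, and they share libraries in which members move together, so the rates cannot be compared. Each value is the gap of the extreme library to its nearest neighbour as a share of the whole range of the group. For Asxl3 in cerebellum the shares were 0.645 in deletion mice (D801, 10.6 CPM, next 6.22) and 0.767 in wild-type mice (W805, 10.1 CPM, next 4.82). For Kmt2c they were 0.540 in deletion cerebellum (D801, 236 CPM) and 0.555 in deletion striatum (D812, 145 CPM), for Chd8 0.593 in deletion striatum (D812, 160 CPM), and for Med13 0.615 in wild-type cerebellum (W805, 139 CPM) and 0.597 in wild-type cortex (W816, 68.3 CPM). For Foxp1 they were 0.533 in deletion striatum (D801, 195 CPM) and 0.616 in wild-type cerebellum (W805, 22.4 CPM).

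Other libraries stood apart together with region markers. In cerebellum the marker mean was low in deletion animal D809, with a share of 0.862, and in wild-type animal W813, with a share of 0.582. D809 also held the highest Bcl11a of deletion cerebellum, 20.9 CPM, with a share of 0.605, beside the lowest Chd7. Bcl11a was highest in wild-type striatum in W813, at 85.6 CPM with a share of 0.539, and that library had a cortical marker mean of 5.45. The part of the markers in these values was not tested.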

How the results depend on the processing

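Of the single-gene values of the named members recomputed, 250 kept their direction and side of the threshold, 8 became weaker, 3 stronger and 4 reversed. With 1 animal left out 330 kept both and 14 became weaker. For deletion against wild type, 0 members were called in each region under every alternative but 1. In cortex without the libraries that go against their label, 22 were called with a median of 0.64, and 5200 genes against 22. With the length score in place of the sex term there, 0 members and 1 gene were called. The replicate block (limma, same animal) called 0 members, and the blocked differences between regions (edgeR with the animal as a term) 0. Leaving out 1 animal gave 0 to 0 called members in each region, and medians of −0.15 to −0.03 in striatum, −0.20 to −0.02 in cerebellum and 0.03 to 0.21 in cortex. Between wild-type regions it gave 3 to 4 calls for striatum over cortex, 10 to 14 for cerebellum over cortex and 7 to 9 for striatum over cerebellum. The replicate block, here edgeR with the animal as a term, gave 8, 16 and 11 for the 3 pairs in this order. The length score gave 11, 25 and 20. Over all 17633 genes the block called 5356, 10121 and 9948, and the length score 6975, 11667 and 11664. Signs turned for Bcl11a in cortex in males (0.018) and without libraries against their label with the length score (0.13), for Med13 in the same fit (−0.015) and for Tcf4 in striatum in males (0.024). Counts of all genes moved by over 1.5 times from 22 in striatum to 42 with DESeq2, 36 in 1 fit of all libraries, 13 without libraries against their label, and 4 and 1 in males and females; from 22 in cortex to 14 with marker covariates and 2 and 6 by sex; from 23 in cerebellum to 1 and 1 by sex; and for striatum over cortex from 3283 to 5356 with the block and 6975 with the length score. The causes were not tested. With 8 animals a group, the largest cortex value among the named members, 0.44 for Kdm6b, did not pass the test.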
